A study of Mus musculus with 2 samples.

Results

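The barcodes described here carried transcripts of nonclassical monocytes and of neutrophils together, and they were chosen by measured values in each droplet barcode. Each held at least 2 unique molecular identifiers (UMIs, counted transcripts) of Ace, Treml4, Adgre4 and Cd300e summed, at least 3 of Csf1r, Ccr2, Ace and Adgre4 summed, at least 5% of its UMIs from S100a8 and S100a9, and under 2 UMIs of the B cell genes Cd79a, Cd79b and Ms4a1. This selection found 256 of 5491 barcodes in the wild-type library (4.66%, exact binomial 95% interval 4.12 to 5.25%) and 111 of 9155 in the PyMT library (1.21%, 0.998 to 1.46%), 367 of 14646 in all. They are called dual-signature barcodes below, because whether each one held 1 cell was not tested.

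The study sorted CD11b+ Gr1+ cells, a gate that takes neutrophils and many monocytes, from mouse spleen and sequenced them as 10x Genomics 3′ libraries. Spleens of 5 mice of strain FVB/n were pooled for the wild-type library. The PyMT library came from 3 pooled spleens of tumour-bearing mice that carry the polyoma middle T transgene, which is known to give mammary tumours and whose promoter the labels do not state. The labels give the strain of the tumour-bearing mice only as PYMT and state no age and no treatment for either group. The libraries held 42542700 and 73435307 UMIs. Each group is 1 library of pooled mice, so library and condition cannot be told apart, no test between conditions exists, and all intervals cover counting error only. Between the libraries, 72 barcode sequences recurred, and 2 dual-signature barcodes of each library were among them.

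Nonclassical monocytes patrol the lining of small vessels and depend on the transcription factor Nr4a1 and the receptor Csf1r. They arise from classical monocytes, which carry Ly6C and Ccr2, and the mouse spleen holds a reservoir of both. Neutrophils store antimicrobial proteins in granules made in a fixed order during maturation, and S100a8 and S100a9, which together form calprotectin, are among their most abundant products.

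Of the genes that chose the barcodes, Ace encodes angiotensin-converting enzyme (chromosome 11, 105967945 to 105989964), Treml4 an innate receptor of the TREM family (chromosome 17, 48264295 to 48275360), Adgre4 an adhesion G protein-coupled receptor (chromosome 17, 55749984 to 55853662) and Cd300e an activating receptor (chromosome 11, 115051917 to 115062177). S100a8 (chromosome 3, 90668978 to 90670035) and S100a9 (chromosome 3, 90692632 to 90695721) are neighbours on opposite strands. All are annotated as protein-coding genes, and the positions are those of the GENCODE annotation on the mouse build that the deposited files use.

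Each library also gave a pair of comparison groups. S100-low cells had the same 2 or more UMIs of Ace, Treml4, Adgre4 and Cd300e, but S100a8 and S100a9 made up under 5% of their UMIs; there were 303 in wild type and 514 in PyMT. Neutrophils had at least 5% of UMIs from S100a8 and S100a9, no UMI of those 4 monocyte genes, at most 1 of Csf1r and Ccr2, and under 2 of the B cell genes, and numbered 3352 and 4843. Among barcodes with the 4 monocyte genes, 376 of 679 in wild type and 168 of 682 in PyMT were above the 5% limit. Of these, 99 and 30 were left out for B cell UMIs and 27 and 31 for too few UMIs of Csf1r, Ccr2, Ace and Adgre4, with 6 and 4 failing both conditions.

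The share of S100a8 and S100a9 in a dual-signature barcode ranged from 5.12 to 29.1% in wild type, with a median of 17.5%, and from 5.10 to 31.6% in PyMT, with a median of 13.9%. In S100-low cells the medians were 0.743 and 1.30%, and in neutrophils 35.7 and 35.8%. The dual-signature medians thus lay between those of the comparison groups in both libraries. Just outside the limit, the highest S100-low cells were at 4.66% in wild type and 4.88% in PyMT. In wild type the share left a gap below the limit, with no barcode between 3 and 4% and 4 between 4 and 5%, whereas PyMT had 18 and 20 barcodes in those intervals. The monocyte side of the choice was shallow: the 4 summed genes had a median of 5 UMIs in wild type (range 2 to 21) and 4 in PyMT (range 2 to 23), and 48 and 33 of the barcodes had exactly 2.

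**Figure D1:**
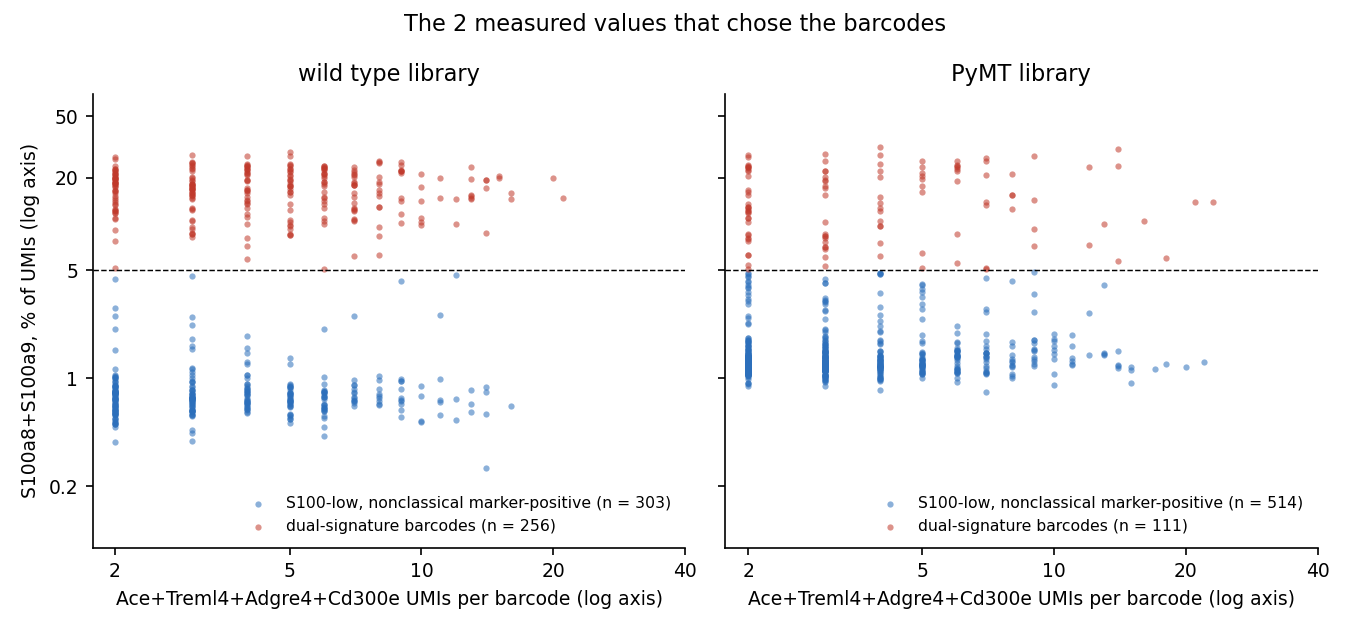
Each point is 1 dual-signature barcode (red) or S100-low cell (blue), with its summed UMIs of Ace, Treml4, Adgre4 and Cd300e (x axis, log scale) set against the percent of its UMIs from S100a8 and S100a9 (y axis, log scale); the dashed line is the 5% limit. Wild-type barcodes fall into 2 bands around 0.743 and 17.5% with few between, and PyMT barcodes fill more of the interval below the line.

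The given markers were checked in the barcodes, beginning with those that the selection did not use. Cx3cr1, the fractalkine receptor of patrolling monocytes, was detected in 194 of 256 dual-signature barcodes of wild type (75.8%, 70.1 to 80.9%) and in 86 of 111 of PyMT (77.5%, 68.6 to 84.9%). It was detected in 76.6 and 67.1% of S100-low cells and in 1.10 and 1.18% of neutrophils. Aif1, a calcium-binding protein of monocytes and macrophages, was found in 77.7 and 57.7% of dual-signature barcodes, 81.8 and 56.4% of S100-low cells and 2.89 and 4.52% of neutrophils. Both genes were therefore seen in dual-signature barcodes far more often than in neutrophils, a cell type that should lack them. The barcodes were deeper than either comparison group, and after each barcode was thinned to 2000 UMIs Cx3cr1 was detected in 32.4 and 22.5% of dual-signature barcodes, 46.2 and 33.1% of S100-low cells and 0.298 and 0.289% of neutrophils.

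Counted per barcode, the monocyte transcripts were about as many as in an S100-low cell. Cx3cr1 averaged 2.17 UMIs per dual-signature barcode against 2.05 per S100-low cell in wild type, and 1.92 against 1.59 in PyMT. Aif1 averaged 3.29 against 3.21 and 1.57 against 1.59. The whole list of 22 nonclassical markers summed to 43.2 UMIs per barcode against 37.8 in wild type and to 40.2 against 36.5 in PyMT, while neutrophils held 1.496 and 1.705. That list includes 5 genes of the selection, and the 17 others summed to 34.5 against 29.9 UMIs in wild type and to 31.5 against 29.0 in PyMT, with 1.46 and 1.60 in neutrophils. Scaled to the total of each group (CPM), the same list read 2641 against 5563 in wild type and 2774 against 4638 in PyMT, beside mean totals of 16368 against 6788 and 14496.5 against 7879 UMIs per barcode. All 22 listed genes were detected in the dual-signature barcodes of both libraries, and the 4 at 0 in neutrophils, Ace, Adgre4, Treml4 and Cd300e, were at 0 there by the selection.

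The nonclassical label held in part. Eno3, a muscle-type enolase that nonclassical monocytes express, was at 36.04 CPM in wild-type and 57.2 CPM in PyMT dual-signature barcodes, at 56.4 and 69.4 CPM in S100-low cells, and at 2.36 CPM in S100-low classical monocytes of either library, a class set by Ly6c2, Csf1r and Ccr2. Ear2, another listed marker, went the other way, at 189 and 231, 382 and 339, and 421 and 431 CPM in the same order. Cx3cr1, Aif1, Nr4a1, Spn, Itgal, Gngt2, Pou2f2 and Cd36 were, like Eno3, higher in S100-low cells than in classical monocytes in both libraries. In wild-type dual-signature barcodes, however, Cx3cr1 (132 against 153 CPM) and Pou2f2 (120 against 125 CPM) were below classical monocytes. The other genes named with them were above classical monocytes there, and in PyMT dual-signature barcodes all of them were. Ccr2, the receptor for egress of classical monocytes and itself a gene of the selection, was at 153 and 275 CPM in dual-signature barcodes, 366 and 449 CPM in S100-low cells and 666 and 733 CPM in classical monocytes. Fn1, fibronectin, which set none of these groups, followed the same order at 114 and 151, 298 and 351, and 672 and 805 CPM. Fn1 was thus present in S100-low cells and dual-signature barcodes, below its level in classical monocytes. Ly6c2, the classical antigen that neutrophils also express, was at 896 and 1015 CPM, between S100-low cells (756 and 925 CPM) and neutrophils (1475 and 1477 CPM).

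In wild type, S100a8, Camp and Ltf per barcode were above the level of a neutrophil, with mean Camp at 727 against 472 UMIs. In PyMT the medians of Camp and Ltf were lower than in neutrophils. There the mean of Camp was level (273.5 against 270.8 UMIs) and that of Ltf lower (62.4 against 75.9). S100a8, which was part of the selection, averaged 1826 UMIs per wild-type dual-signature barcode and 1366 per neutrophil, and 1565 and 1815 in PyMT. The cathelicidin gene Camp, which the selection did not use, had a median of 563.5 UMIs (quartiles 335 and 975.5, highest 2597) in wild-type dual-signature barcodes, 9 in S100-low cells and 401 in neutrophils. In PyMT its median was 114 (quartiles 12 and 534.5, highest 1175), against 8 and 180. The interquartile ranges of Camp in dual-signature barcodes and S100-low cells did not overlap in either library, although in PyMT they nearly met (S100-low quartiles 6 and 11). Those of dual-signature barcodes and neutrophils overlapped in both. Ltf, the iron-binding lactoferrin of secondary granules, had medians of 89, 1 and 68 UMIs in wild type and 25, 2 and 49 in PyMT, in the same order of groups. Ly6g, the neutrophil surface antigen of the Gr1 antibody, was detected in 93.8 and 78.4% of dual-signature barcodes, 17.8 and 26.5% of S100-low cells and 97.2 and 89.1% of neutrophils. The list of 24 neutrophil markers, which includes the S100 pair, summed to 4736 UMIs per wild-type barcode against 3529 per neutrophil, and to 3543 against 4233 in PyMT.

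**Figure D2:**
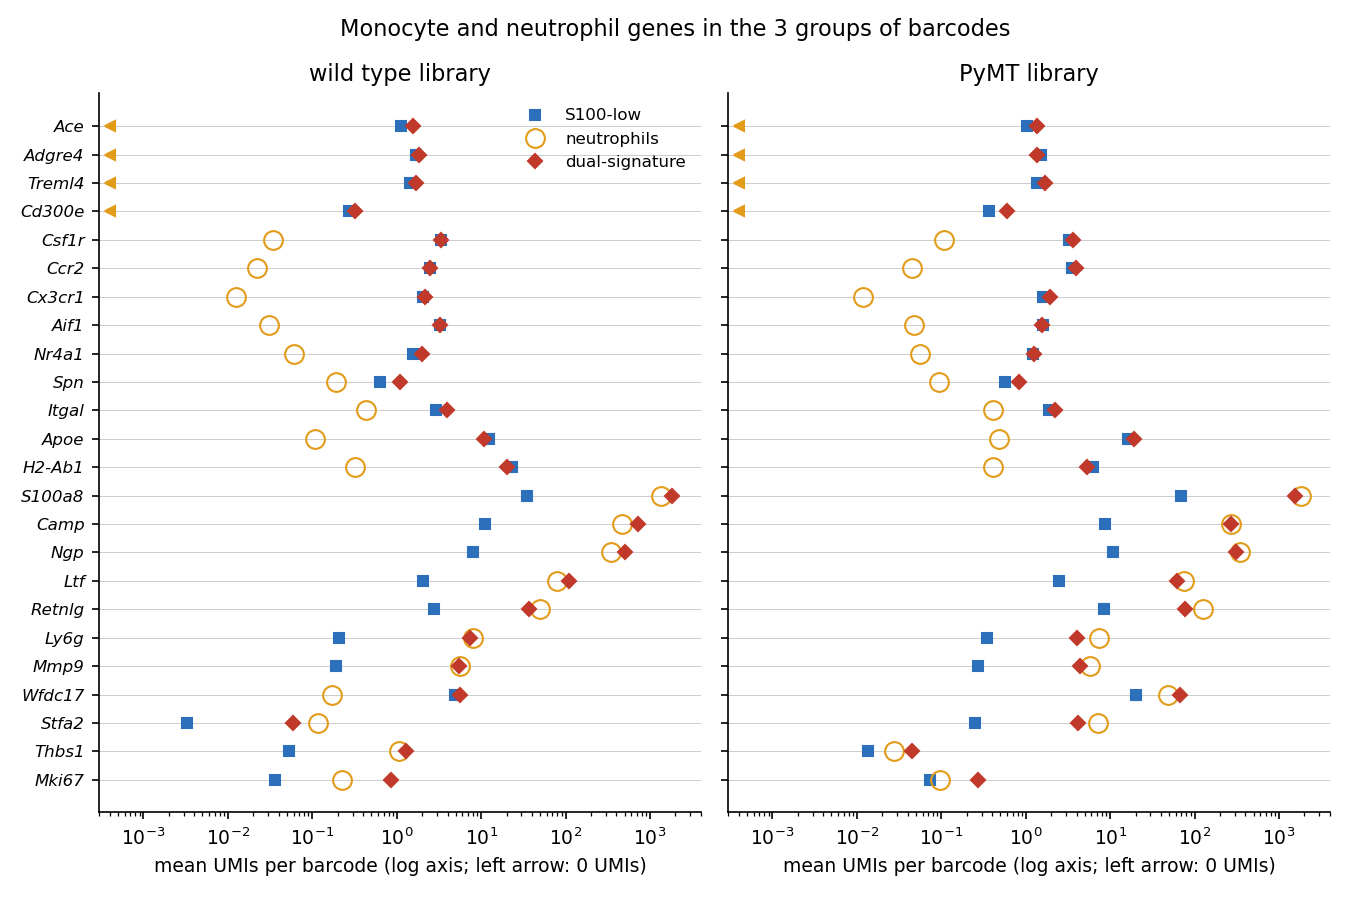
Mean UMIs per barcode (x axis, log scale) of 24 genes in dual-signature barcodes (diamonds), S100-low cells (squares) and neutrophils (circles) of each library; left arrows mark 0 UMIs. For monocyte genes such as Cx3cr1 and Aif1 the diamonds lie on the squares, and for neutrophil genes such as Camp and Ltf they lie near the circles.

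In depth, dual-signature barcodes exceeded both groups. Their median was 13749 UMIs in wild type (lowest 3228, highest 47228) and 13388 in PyMT (lowest 2560, highest 29390). S100-low cells had medians of 5854 and 7482.5 UMIs and neutrophils 5367 and 7891, so dual-signature barcodes were 2.35 and 1.79 times as deep as S100-low cells. Of the barcodes, 149 of 256 (58.2%) and 57 of 111 (51.4%) lay above the 95th percentile of S100-low cells, while 13 and 12 were at or below the S100-low median. Genes per barcode had medians of 2839 and 2765, against 1830 and 2177 in S100-low cells and 1085 and 1340 in neutrophils. Thinned to 2000 UMIs, the order changed: dual-signature barcodes held 794.5 and 834 genes, between the 902 and 925 of S100-low cells and the 546 and 547 of neutrophils. Minimum UMI numbers admit deep barcodes more readily than shallow ones. S100-low cells had to meet the first of these minimums and not the second.

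For comparison, the UMIs of 1 S100-low cell and 1 neutrophil of the same library were added, over all 1015656 such pairs of wild type and 2489302 of PyMT. The pair sums had medians of 12027 UMIs in wild type (5th to 95th percentile 8065 to 23026) and 15559 in PyMT (8726 to 26804). The dual-signature medians lay within both ranges. In wild type, 52 barcodes (20.3%) were above the 95th percentile of the sums and 28 (10.9%) below the 5th. In PyMT, 2 (1.80%) were above and 20 (18.0%) below. The S100a8 and S100a9 share of the sums had medians of 17.4 and 19.0%, beside 17.5 and 13.9% in the barcodes, and the median number of genes in the sums was 2514 and 2843, beside 2839 and 2765. Pair sums and wild-type barcodes thus had near-equal S100 shares, and PyMT barcodes had lower ones.

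**Figure D3:**
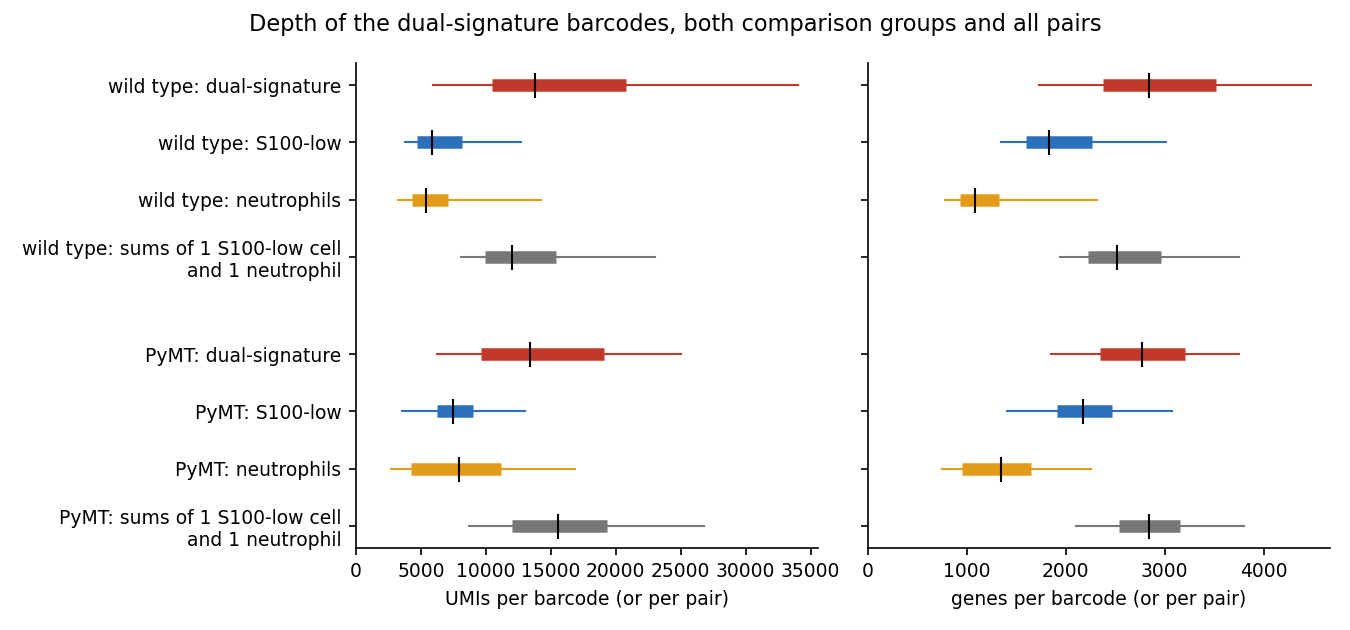
UMIs (left) and genes (right) per barcode, or per pair, for dual-signature barcodes, S100-low cells, neutrophils and all sums of 1 S100-low cell and 1 neutrophil; thick bars span the quartiles, thin lines the 5th to 95th percentile, and ticks mark the median. The dual-signature medians of 13749 and 13388 UMIs lie beside the sums' 12027 and 15559 and right of both single groups.

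Gene by gene, the dual-signature profile lay between the profiles of the comparison groups. Pearson's r across genes on the log2(CPM + 1) scale, where genes are not independent and all profiles share a library, was 0.893 with S100-low cells, 0.889 with neutrophils and 0.982 with a mix of both in wild type (8880 genes with at least 50 UMIs in the 3 sums). In PyMT it was 0.935, 0.885 and 0.981 over 9132 genes. The weight of neutrophils in the mix, 50.9 and 45.3%, came from the S100 level itself. A second estimate came from genes with at least 100 CPM in one group and at least 20-fold less in the other, without the genes of the selection. On a scale where S100-low cells are 0% and neutrophils 100%, the 31 neutrophil-specific genes of wild type had a median position of 58.5% (range 23.2 to 156%) and the 105 genes specific to S100-low cells one of 59.4% (46.9 to 69.2%). In PyMT the medians were 42.8% for 16 neutrophil-specific genes (26.4 to 57.0%) and 50.9% for 80 genes specific to S100-low cells (34.5 to 62.8%). The medians of both sets were within 1 percentage point of each other in wild type. In PyMT the quartiles were 31.7 and 48.0% for the neutrophil-specific genes and 46.5 and 54.4% for the others, and these ranges overlapped. Per barcode, 93.8% of the genes of wild type and 95.4% of 9086 genes of PyMT were within 2-fold of the sum of the 2 group means, with a median log2 difference of 0.33 and -0.08. The rest of the 9132 genes of PyMT had no finite log2 difference, as for a gene at 0 UMIs in dual-signature barcodes, and were left out of that share.

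Few genes lay outside the span of both groups. In wild type 232 of 8880 genes (2.61%) were at least 1.5-fold above the higher group and 41 (0.462%) at least 1.5-fold below the lower one. In PyMT 206 of 9132 (2.26%) were above and 127 (1.39%) below. The counting interval also lay beyond the nearer group for 117 and 2 genes of wild type and for 31 and 7 of PyMT. Without the barcodes that had 2 or more UMIs of the proliferation genes Mki67 and Top2a, an alternative chosen after seeing the data, 82 genes were above and 107 below in wild type.

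Ranked by the bound nearest 0, the first genes above both groups in wild type were Gzma, Ccl5, Ccl24, Chit1 and Prtn3. Gzma, the granzyme A of cytotoxic lymphocytes, was at 28.4 CPM against 4.92 in neutrophils and 1.46 in S100-low cells, but 3 of the 256 barcodes held 97.5% of its 119 UMIs. The T and NK cell chemokine Ccl5 was at 103 CPM against 20.4 and 12.1 in S100-low cells and neutrophils, with 79.4% of 432 UMIs in 3 barcodes, and without these it was at 21.5 CPM. For Ccl24, the eotaxin-2 of alternatively activated macrophages, 3 barcodes held 96.9% of 127 UMIs. Chit1, the chitinase chitotriosidase, was spread wider, with 41 UMIs in 20 barcodes, 29.3% of them in 3, and 9.78 CPM against 2.26 in neutrophils and 0 in S100-low cells. Prtn3, the primary granule protease 3, was at 110 CPM against 12.6 and 36.8 in S100-low cells and neutrophils, with 43.7% of 462 UMIs in 3 barcodes. UMIs of Gzma and Ccl24 were thus found in 6 and 5 barcodes, and those of Ccl5 and Prtn3 in 42 and 55.

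The next genes in wild type were Cdc6, Mcm2, Nkg7, Syce2 and Ccl4. Cdc6, which loads the replicative helicase, was at 7.40 CPM against 2.35 in neutrophils and 0 in S100-low cells, and Mcm2, a subunit of that helicase, at 18.9 CPM against 5.35 and 6.50 in S100-low cells and neutrophils, with 79 UMIs over 46 barcodes. Nkg7, a cytotoxic granule protein, had 150 UMIs over 47 barcodes and 35.8 CPM against 16.0 in neutrophils and 3.40 in S100-low cells. Syce2 was at 11.0 CPM against 4.16 in neutrophils and 0.486 in S100-low cells, and 3 barcodes held 71.3% of the 122 UMIs of the chemokine Ccl4. The NK list as a whole read 84.2 CPM in wild-type dual-signature barcodes against 35.5 in S100-low cells and 22.99 in neutrophils, and 14.9 against 12.8 and 14.1 CPM in PyMT, where 7 of 10 markers were at 0. The part of NK or T cell barcodes in these values was not tested.

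In PyMT the first gene above both was Kif11, a spindle motor, with 8.08 CPM against 1.48 and 2.29 in S100-low cells and neutrophils (13 UMIs in 5 barcodes). Heca came second, at 9.94 CPM against 2.47 and 3.64, before the replication genes Cdc45 (11.2 CPM against 2.47 and 4.41) and Lig1 (14.9 against 5.93 and 6.82). The 3 highest barcodes of each gene held 76.9% of the UMIs of Kif11, 37.5% of Heca, 44.4% of Cdc45 and 54.2% of Lig1. Over the unchanged total, the UMIs of the other barcodes came to 1.86 CPM for Kif11, 6.21 for Heca and Cdc45 each, and 6.84 for Lig1. Ranbp9, Marveld1, Il1rap, Nmrk1, Nhsl2 and Mtmr9 followed, with log2 differences of 0.67 to 1.54 from the nearer group, each from 13 to 75 UMIs. Below both in PyMT were the haemoglobin genes Hba-a1 (29.8 CPM against 79.3 and 66.5), Hbb-bs (56.6 against 116 and 92.7) and Hbb-bt (8.08 against 19.3 and 19.0). Per barcode, the whole erythroid list was at 1.42 UMIs, beside 1.78 in S100-low cells and 1.56 in neutrophils.

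Proliferation transcripts were more frequent in dual-signature barcodes than in either group, together with depth. At least 2 UMIs of Mki67 and Top2a summed were found in 65 of 256 barcodes of wild type (25.4%, 20.2 to 31.2%), in 0.990% of S100-low cells and in 7.25% of neutrophils. In PyMT the shares were 7.21% (8 of 111, 3.16 to 13.7%), 1.75% and 2.87%. The wild-type barcodes with these UMIs had a median depth of 24898 UMIs against 12332 in the rest. After thinning to 2000 UMIs, at least 1 UMI was found in 9.77% (6.42 to 14.1%) of wild-type dual-signature barcodes, 2.97% of S100-low cells and 5.04% of neutrophils (4.33 to 5.84%), and in 5.41% (2.01 to 11.4%), 2.14% and 2.11% in PyMT. The wild-type interval stayed above that of neutrophils, whereas the PyMT intervals overlapped. Neutrophils with 2 or more of these UMIs were deeper than the rest as well, at medians of 12694 against 5225 UMIs in wild type and 17378 against 7715.5 in PyMT. Thinning evens out detection but not the choice of deep barcodes by the UMI minimums, so the thinned shares are not free of depth.

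Granule and maturation genes were also set against the S100 pair, per 1000 UMIs of S100a8 and S100a9. The secondary granule genes Camp, Ngp and Ltf summed to 456 in wild-type dual-signature barcodes and 391.8 in neutrophils, and to 262 and 232 in PyMT. Genes of late maturation, the resistin-like Retnlg, the gelatinase Mmp9 and the receptors Cxcr2 and Csf3r, summed to 15.4 against 24.9 and to 36.1 against 46.1. The first sum was thus higher and the second lower than in neutrophils of the same library, although in PyMT Ltf alone was level, at 25.3 and 25.4. The primary granule gene Elane and the gene Fcnb were picked after their values were seen. Elane was at 110 CPM against 58.8 in neutrophils of wild type and at 29.8 against 27.6 in PyMT, and Fcnb at 222 against 144 and at 76.4 against 92.0 CPM.

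The same ratios differed within the PyMT barcodes by S100 share, which is both the value that chose them and the denominator of the ratio. The 34 barcodes with 5 to 10% S100 had 24.0 Camp and 86.35 Retnlg UMIs per 1000 S100 UMIs and a median of 9530 UMIs. The 39 with 10 to 20% had 103 and 43.4. The 38 with 20% or more had 128 and 17.0, and a median of 17559 UMIs. All neutrophils of PyMT had 90.5 Camp and 42.4 Retnlg UMIs per 1000, and S100-low cells 69.9 and 67.9, so the lowest interval had less Camp and more Retnlg than either group. Wfdc17, a whey acidic protein domain gene, was at 115, 39.1 and 7.81 per 1000 in the 3 intervals, beside 164 in S100-low cells and 16.2 in neutrophils. These values are a description and not a measure of neutrophil stage, and the cause of the differences was not tested. In wild type Camp was at 241, 249 and 245 per 1000 and Retnlg at 34.6, 13.05 and 10.5, with 27, 151 and 78 barcodes, beside 207 and 21.8 in neutrophils.

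To place the dual-signature barcodes among others, the same 5% limit was applied to barcodes with markers of other classes. S100a8 and S100a9 reached it in 49.7% of B cell barcodes of wild type (372 of 748, 46.1 to 53.4%) and 24.2% of PyMT (366 of 1515, 22.02 to 26.4%). Classical monocyte barcodes reached it in 42.1% (98 of 233) and 16.0% (134 of 837), T cells in 19.5% (16 of 82) and 17.8% (33 of 185), and NK cells in 33.3% (10 of 30) and 17.2% (5 of 29). Barcodes with the nonclassical genes were at 55.4% (51.5 to 59.2%) and 24.6% (21.4 to 28.0%). Neutrophil transcripts at this level were thus found in every class examined, and the nonclassical interval overlapped that of B cells in both libraries. The classes were not exclusive. Of the nonclassical barcodes, 115 of 679 in wild type (16.9%) and 35 of 682 in PyMT (5.13%) held 4 or more B cell UMIs and count in both classes. Barcodes above the limit were deeper in each class: the medians were 10834.5 against 4008.5 UMIs for wild-type B cells, 12517 against 5644 for classical monocytes and 15156.5 against 5854 for nonclassical ones. In PyMT they were 6755 against 3504, 12332 against 7486 and 14556 against 7482.5. Below the limit all 5 classes had near-equal median S100 shares, 0.739 to 0.787% in wild type and 1.28 to 1.38% in PyMT.

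**Figure D4:**
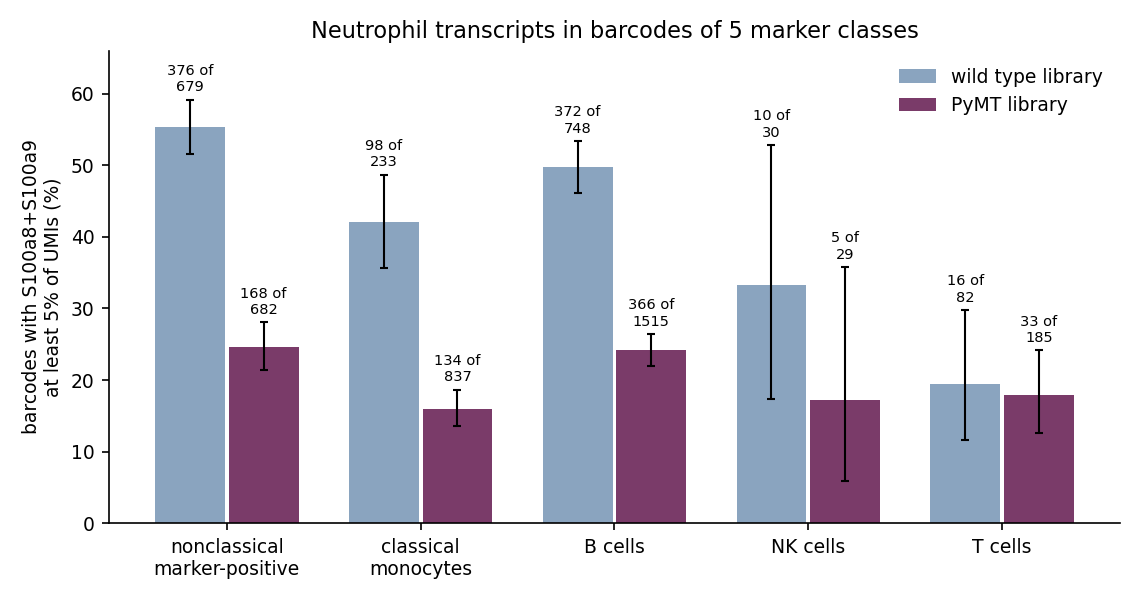
Percent of barcodes with at least 5% of UMIs from S100a8 and S100a9 (y axis) in 5 marker classes of each library, with exact 95% binomial intervals and the counts above the bars. The nonclassical bars, 55.4 and 24.6%, are beside B cell bars of 49.7 and 24.2%, and the wild-type bar is the higher of each pair. Barcodes with markers of both classes enter both bars.

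Against S100-low cells, the contrast that the selection itself set, 855 of 6888 genes of wild type were at least 1.5-fold higher (12.4%) and 2327 lower (33.8%) in dual-signature barcodes. In PyMT 468 of 6645 were higher (7.04%) and 2408 lower (36.2%). These values describe the selection and carry no finding, and the split turns with the scaling, since the median gene sat at -0.36 and -0.42 on the log2 scale. With a trimmed mean of M-values, 63.8% of the called genes of wild type and 52.6% of those of PyMT were higher, against 26.9 and 16.3% with totals. The highest were neutrophil genes: in wild type Ms4a3 (80.4 against 0.486 CPM), Camp, Ngp, Wfdc21, Fcnb, Ltf, Lcn2, Elane, Orm1 and Slco4c1, and in PyMT Camp, Ngp, Ltf, BC117090, Lcn2, Padi4, Wfdc21, Mgst2, Prok2 and AA467197. The lowest in wild type were mainly B cell genes such as Ebf1 (2.39 against 95.8 CPM) and Mzb1, which the limit on B cell UMIs kept out of dual-signature barcodes alone; 53 and 49 S100-low cells exceeded that limit. Once S100-low cells met the same conditions, Ebf1 had a log2 ratio of 0.27 in wild type.

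Between the libraries, most of the genes with the largest differences in dual-signature barcodes also differed in the same direction in neutrophils, with Ccl5 and Ccl24 as exceptions. Of 6433 genes with at least 50 UMIs in the libraries together, PyMT was higher by 1.5-fold or more for 589 (9.16%) and lower for 904 (14.1%). Higher genes were 39.5% of those called, and 27.4% when the 50 most abundant genes were left out of the totals. In S100-low cells 8.45% of 6998 genes were higher and 7.69% lower, and in neutrophils 10% and 31.6% of 9134. Without the barcodes with proliferation UMIs, 560 genes were lower in PyMT. Among dual-signature barcodes no deeper than the 75th percentile of S100-low cells, of which there were 29 and 24, 196 genes were higher and 70 lower. Both subsets have smaller sums, in which fewer genes reach 50 UMIs, so these counts cannot be set against those of the 6433 genes.

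Ifitm1, an interferon-induced transmembrane protein, had the highest lower bound, at 15.03 CPM in wild-type and 1974 CPM in PyMT dual-signature barcodes (log2 ratio 7.04, interval 6.68 to 7.42). It was at 21.9 and 713 CPM in S100-low cells and at 26.8 and 3033 CPM in neutrophils. The PyMT level of the barcodes lay between those of the groups. The stefin genes, inhibitors of cysteine proteases, followed: Stfa2 went from 3.58 to 290 CPM (6.34), Stfa2l1 from 22.9 to 460 CPM (4.33), BC100530 from 43.2 to 1662 CPM (5.27) and BC117090 from 4.06 to 94.5 CPM (4.54). Steap4, a metalloreductase, had a ratio of 6.47 and rested on 2 UMIs in wild type. Prok2, a chemokine-like prokineticin, went from 6.92 to 221 CPM, Igfbp6 from 3.58 to 125 CPM and the protease Asprv1 from 8.59 to 193 CPM.

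Wfdc17 was detected in 220 of 256 wild-type barcodes with a median of 4 UMIs (quartiles 1 and 7, highest 123), and in all 111 PyMT barcodes with a median of 40 (22.5 and 85.5, highest 329). The interquartile ranges of the libraries did not overlap. In CPM it went from 340 to 4591 (log2 ratio 3.75, interval 3.67 to 3.84). Neutrophils went from 26.0 to 5765 CPM and S100-low cells from 716 to 2573 CPM. In wild type the dual-signature level in CPM was thus below that of S100-low cells and in PyMT above it. Per barcode the dual-signature mean was above that of S100-low cells in both, at 5.57 against 4.86 UMIs and 66.5 against 20.3. Of the 14 measured genes of a list high in tumour-bearing neutrophils, which was chosen on these libraries and is no independent evidence, all 14 were higher, with a median of 4.43, beside 4.50 in S100-low cells and 5.46 in neutrophils.

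Thbs1, the matrix protein thrombospondin 1, had the lowest upper bound. It was detected in 137 of 256 wild-type barcodes (53.5%) and in 4 of 111 PyMT barcodes (3.60%), at 78.5 and 3.11 CPM (log2 ratio -4.66, interval -6.29 to -3.42). Neutrophils were at 162 and 3.30 CPM and S100-low cells at 7.78 and 1.73 CPM. Slc6a13, a GABA transporter (log2 ratio -4.21), the adhesion molecule Ncam1 (-4.16), Tex15 (-3.62) and the kinase Stk39 (-2.51) were likewise lower in PyMT, and each was lower in its neutrophils, at -1.74, -2.39, -2.02 and -2.83. A list of genes high in wild-type neutrophils, also chosen on these libraries, had 6 of 8 measured genes lower and none higher, with a median of -2.48. The ratios of Gzma (-4.51) and Ccl24 (-5.61) rested on 3 wild-type barcodes each, without which 3 and 4 UMIs were left in wild type. Ccl5 (-4.37) had a ratio of -2.11 (interval -3.37 to -1.07) without its 3 highest wild-type barcodes, which were left out after their values were seen. Cd209a, a lectin of monocyte-derived dendritic cells, had a ratio of -4.60 and 1 UMI in PyMT. The interferon-induced chemokine Cxcl10 went from 30.3 to 3.73 CPM, and in S100-low cells from 60.3 to 3.70 CPM.

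Genes of MHC class II and costimulation were lower in PyMT in dual-signature barcodes and in S100-low cells. Of 10 measured genes 9 were lower and none higher, with a median log2 ratio of -1.11, against a median of -0.02 over all genes, of which 14.1% were lower. S100-low cells had a median of -1.31 and neutrophils one of 0.09. H2-Ab1, a class II beta chain, had a median of 6.5 UMIs per wild-type barcode (quartiles 1 and 26.25) and of 1 per PyMT barcode (0 and 2), and the interquartile ranges overlapped. In CPM it was at 1239 and 363, beside 3389 and 806 in S100-low cells and 48.7 and 49.1 in neutrophils. Cd74, the invariant chain, was at 4056 and 1479 CPM (log2 ratio -1.46) and H2-Aa at 1483 and 469 CPM (-1.66). B cell markers, of cells that also carry class II, were lower in S100-low cells of PyMT for 6 of 9 measured genes, at 693 and 469 CPM in sum, and 53 and 49 of those cells exceeded the B cell limit of the selection. In dual-signature barcodes the B cell list read 149 and 200 CPM. Dendritic cell markers had lower sums in PyMT in both groups: the list of 10 read 180 CPM in wild-type and 122 in PyMT dual-signature barcodes and 439 and 256 in S100-low cells, and the part of either cell type in the class II values was not tested. Of 14 MHC class I genes 1 was lower and none higher, H2-Q7 at 65.9 and 40.4 CPM, with a median of -0.28, and among shallow barcodes the class I median was 0.54.

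Cell cycle genes were lower in PyMT dual-signature barcodes, 22 of 24 measured and none higher, with a median of -1.21, where 14.1% of all genes were lower and 9.16% higher. Neutrophils had a median of -1.13, and S100-low cells, of which 14 list genes were measured, one of 0.48. Cdk1, the mitotic kinase, was at 19.8 and 3.73 CPM (log2 ratio -2.41), the cyclin Ccna2 at 24.6 and 6.21 (-1.98), Cenpf at 17.4 and 4.35 (-2.00) and Rrm2, a subunit of ribonucleotide reductase, at 61.8 and 16.2 (-1.94). Without the barcodes with 2 or more UMIs of Mki67 and Top2a the median was -0.33, and among shallow barcodes it was -0.12.

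Against the same shares of 9.16% higher and 14.1% lower over all genes, granule genes of the secondary set were 1 higher and 5 lower of 15, with a median of -0.43. Camp had a log2 ratio of -1.23 and Orm1, an acute-phase glycoprotein, one of -1.22, and Hp, haptoglobin, was higher at 1062 and 1846 CPM (0.80). Late maturation genes were 12 higher and 1 lower of 18, with a median of 0.88, beside 0.74 in S100-low cells and 0.97 in neutrophils. The cytokine Il1b was at 61.6 and 487 CPM (log2 ratio 2.98), the chemokine receptor Cxcr2 at 68.0 and 260 (1.93), the lectin Clec4d at 21.0 and 82.0 (1.97) and the decoy receptor Il1r2 at 9.31 and 34.2 (1.88). Chemoattractant receptors were 6 higher and none lower of 10, with Ccr1 at 43.9 and 173 CPM, the formyl peptide receptor Fpr1 at 26.3 and 61.5 and the complement receptor C5ar1 at 97.8 and 209.

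Interferon response genes were 9 higher and 3 lower of 20 in dual-signature barcodes, beside 9.16 and 14.1% of all genes, with a median of 0.51. S100-low cells had a median of -0.07 and neutrophils one of 1.47. Rtp4, a chaperone induced by interferon, was at 21.96 and 59.0 CPM, beside 61.3 and 63.2 in S100-low cells and 3.39 and 53.1 in neutrophils. Oasl2 (log2 ratio 1.75) and Oas1a (1.15), of the oligoadenylate synthetase family, were higher as well. Selplg, the ligand of P-selectin, was at 130 and 382 CPM (1.56), and among adhesion genes Cd84 (1.90) and Amica1, which encodes JAML (1.46), were also higher. Icam1 was lower (-1.27), and the 16 adhesion genes had a median of 0.14, with 4 higher and 2 lower; among shallow barcodes that median was -0.46.

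The lists that follow are to be read against the 9.16% of all genes that were higher and the 14.1% that were lower. Factors of monocyte identity and survival were 4 lower and none higher of 15, with a median of 0.14. The anti-apoptotic Bcl2a1b was at 49.4 and 17.4 CPM (log2 ratio -1.51), beside 92.9 and 31.9 in S100-low cells. Bcl2a1a (-0.69) and Bcl2a1d (-0.72) are near-identical copies of it, so counts among the 3 are uncertain; with equal weight per barcode Bcl2a1d was at 0.011. Fc receptors were 3 higher and none lower of 6, led by Fcgr4 (20.3 and 57.2 CPM) and Fcgr1 (16.2 and 37.9 CPM). Lysosome genes were 4 higher and 1 lower of 21, with cathepsin D, Ctsd, at 135 and 324 CPM and Ctsc at 125 and 270. Of 13 lipid genes 6 were higher, such as Fabp5 (32.9 and 119 CPM), and 5 lower, such as Lpl (23.6 and 4.35 CPM), with a median of 0.55 that was -0.09 without the barcodes with proliferation UMIs. Inflammatory genes were 4 higher and 7 lower of 21, immediate early and stress genes 4 higher and 6 lower of 20, complement genes 2 and 2 of 8, and clearance receptors 2 and 2 of 9. In the immediate early list Junb was at 421 and 882 CPM and the heat shock gene Hspa1b at 105 and 43.5. None of 12 mitochondrially encoded genes passed 1.5-fold in either direction, and the mitochondrial share of UMIs had medians of 0.976 and 1.06% in dual-signature barcodes, 1.61 and 1.68% in S100-low cells and 0.296 and 0.329% in neutrophils.

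**Figure D5:**
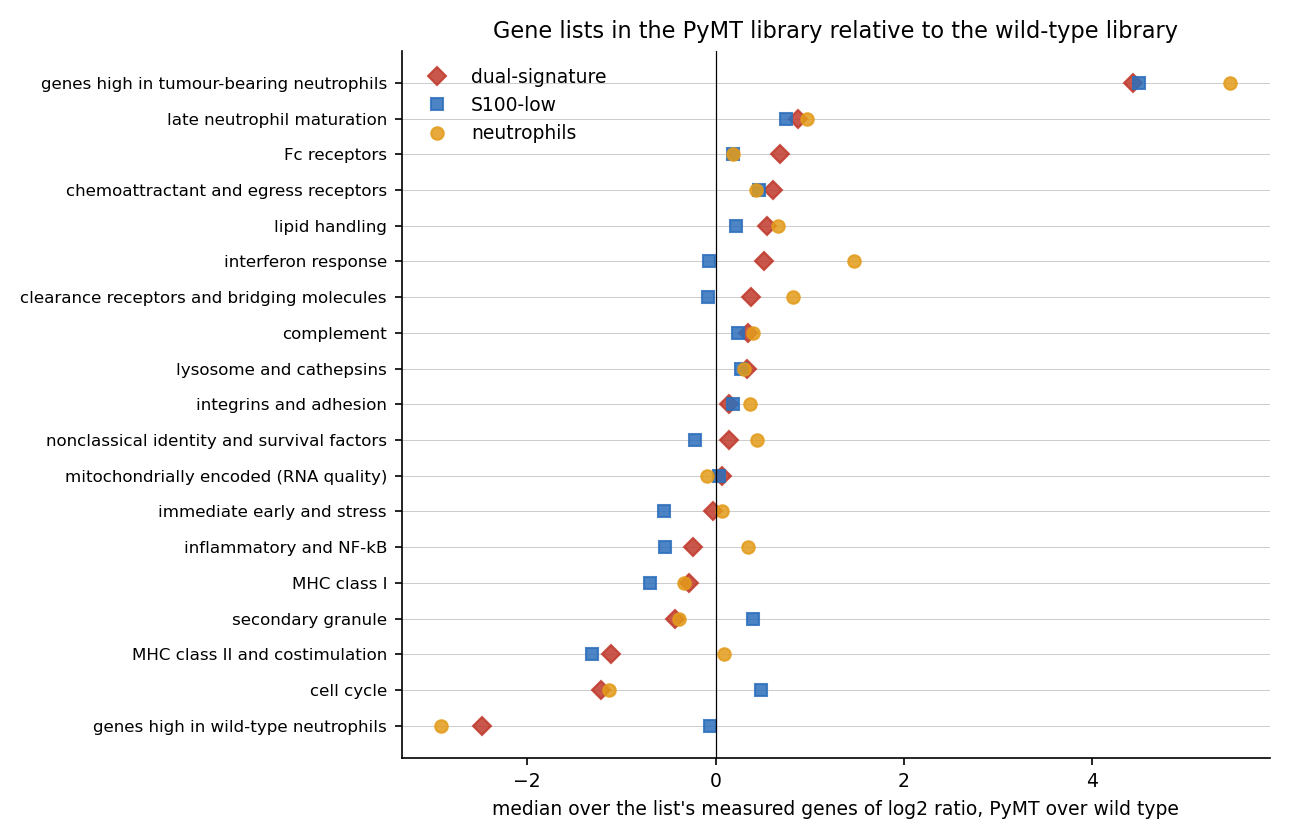
Median log2 ratio of PyMT over wild type (x axis) over the measured genes of each list, in dual-signature barcodes (diamonds), S100-low cells (squares) and neutrophils (circles). The diamonds lie near the squares for MHC class II, at -1.11 and -1.31, near the circles for the cell cycle, at -1.21 and -1.13, and between both for the interferon response, at 0.51, -0.07 and 1.47.

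Markers of other cell types were summed in dual-signature barcodes as well. T cell markers summed to 175 and 114 CPM, of which Cd3d made up 172 and 108 CPM, and the same gene was at 409 and 232 CPM in neutrophils and 17.0 and 15.6 CPM in S100-low cells. Red pulp macrophage markers summed to 226 and 260 CPM, beside 298 and 301 in S100-low cells and 117 and 222 in neutrophils. Platelet markers summed to 7.88 and 7.46 CPM, beside 19.9 and 7.16 in S100-low cells and 8.85 and 13.7 in neutrophils. For basophil, mast cell and eosinophil markers the sums were 4.77 and 7.46 CPM, beside 0.486 and 4.69 in S100-low cells and 2.44 and 7.76 in neutrophils. B cell markers, which the selection limited, summed to 149 and 200 CPM, mostly from Cd37 at 117 and 149 CPM, and plasmacytoid dendritic cell markers to 76.1 and 91.4 with Siglech at 0 in both libraries. Markers of granulocyte-monocyte progenitors summed to 1063 and 626 CPM, above S100-low cells (537 and 464 CPM) and neutrophils (818 and 573 CPM). The leading gene was Cebpe, a factor of late granulocyte development that neutrophil precursors also express, at 483 and 245 CPM.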

How the data were processed

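CD11b+ Gr1+ spleen cells of 2 libraries were analysed. The deposited files hold raw UMI counts per gene and barcode, made by the authors with Cell Ranger 2.1.0 on mm10, per the submitters' processing notes, with 27998 gene rows. All deposited counts were whole numbers, the shallowest barcode held 2752 (wild type) and 2502 (PyMT) UMIs, and no cell annotation was used. No filter on cells was applied and no doublets were removed or called. Constant genes of antigen receptors were not used here.

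The members and gene lists were chosen with earlier results of these data known. Counts were summed per library and group and scaled to that sum's total (CPM). Log2 ratios have exact conditional Poisson intervals, and shares have exact Clopper-Pearson intervals, both at 95% and for counting error only. A group at 0 was set to a floor of 3 counts. Called genes had at least 50 UMIs in the sums and a 1.5-fold difference. Named genes are, for each contrast, the 10 highest and 10 lowest by the interval bound nearest 0, and up to 4 of each list with the largest ratios. Ribosomal, mitochondrial, receptor segment and unnamed genes, and those of the selection, stayed out of the ranking. Genes of the granule stage and proliferation measures and Tyms were named after their values were seen. Pair sums were enumerated over all pairs. Barcodes were thinned once to 2000 UMIs, which left out none. Positions are from GENCODE on GRCm38, the same assembly as mm10. Python 3.11.15, numpy 2.4.6, scipy 1.17.1, matplotlib 3.10.9, R 4.3.3 and edgeR 4.0.16 (normalization factors only) were used, and the ratio calculation was tested on simulated data. The alternatives varied the S100 limit, the monocyte conditions, the cell filter, scaling, UMI minimum, depth and comparison cells.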

Additional observations from a re-analysis of the deposited data

Results flagged for a closer look

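Against S100-low cells, 5 genes lay at least 1.5-fold on opposite sides in the wild-type and PyMT libraries, among the named genes and list members with at least 50 UMIs per library in both groups together. With 1 library per condition, the difference between the libraries was not tested. Scaled to totals, Wfdc17 was lower in dual-signature barcodes of wild type (log2 ratio -1.07, 1426 UMIs against 1473 in a smaller total) and higher in those of PyMT (0.84, 4591 against 2573 CPM). Counted per barcode, it was higher than in S100-low cells in both libraries, at 5.57 against 4.86 UMIs in wild type and 66.5 against 20.3 in PyMT. The cyclin Ccna2 was higher in wild type (4.07, with 3 UMIs in S100-low cells) and lower in PyMT (-0.67, 10 against 40 UMIs). Tyms, thymidylate synthase, did likewise at 3.14 and -0.60, with 5 UMIs in wild-type S100-low cells. Dedd, a death effector domain protein, was at 0.87 and -1.05, and the deubiquitinase Usp22 at 0.78 and -0.69, each from 10 to 69 UMIs per group.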

How the results depend on the processing

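Of the values of named genes and list medians under the alternatives, 1083 were labelled as the same, 230 as moved and 14 as reversed. For a named gene, the same means inside the counting interval of the reported ratio, which is wide for genes with few UMIs. For a list, it means close to the reported median. Reversed values, all of named genes, changed sign from a reported difference of at least 1.5-fold. Sign changes of named genes with smaller differences were not counted. Among those labelled as the same or moved, 15 of 208 list medians, from 8 lists, changed sign too, with MHC class I at 0.54 and adhesion at -0.46 in shallow barcodes and lipid handling at -0.09 without cycling ones. Alternatives without cycling barcodes, with held comparison cells for the span, or with the interval beyond the nearer group were chosen after seeing the data. Apart from the floor of 3 counts described for shallow barcodes, the cause of the changes below was not tested.

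The share of dual-signature barcodes was 2.99% of wild type and 0.623% of PyMT with at least 4 UMIs of the nonclassical genes, and 0.510 and 0.197% after thinning to 2000 UMIs. In PyMT it was 1.74% with an S100 limit of 2%, 0.841% with 10% and 1.51% without the condition on Csf1r, Ccr2, Ace and Adgre4. The PyMT depth ratio to S100-low cells was 1.46 and 2.21 under the 2 and 10% limits. Under those limits the PyMT shares of S100-high barcodes were 32.7 and 18.0% for B cells, 22.9 and 10.4% for classical monocytes and 33.4 and 18.8% for nonclassical barcodes, and the wild-type nonclassical share was 49.0% under the 10% limit.

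Between libraries, 934 genes were higher and 1506 lower in PyMT with at least 20 UMIs, 240 and 214 with at least 200, 196 and 70 among shallow barcodes, and 560 were lower without cycling ones. Fewer genes reach the UMI minimum in the sums of shallow or non-cycling barcodes, so their counts are not comparable with the reported ones. Over S100-low cells in wild type, 1460 genes were higher and 827 lower with TMM, 1457 and 829 with median of ratios, 1369 and 923 without the 50 most abundant genes, and 473 higher among shallow barcodes. In PyMT these were 907 and 816, 923 and 804, 763 and 1164, and 862. Outside the span, wild type had 46 genes above and 18 below at 2-fold, 1630 and 277 with shallow barcodes, 82 and 107 without cycling ones, and 117 and 2 by the interval. PyMT had 46 and 51, 2436 and 247, 193 below without cycling ones, and 31 and 7. A gene with no UMI in the shallow barcodes was set to the floor of 3 counts, which in so small a total can lie above both groups. How many of the 1630 and 2436 genes rest on that floor was not counted, so these counts are no measure of genes above both.

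Among named genes with a reported difference of at least 1.5-fold, signs changed for Bcl2a1d (0.011 with equal weight, 1.26 in shallow barcodes) and Ccl24 (0.63 with 4 nonclassical UMIs). In shallow barcodes they changed for Cd36 (0.49), H2-Eb1 (1.07) and Pros1 (-0.35) between libraries, and over S100-low cells for H2-Oa (0.063, wild type). Gtf2h4 (0.48) and Snx8 (0.57) also turned positive over S100-low cells of PyMT, but the shallow barcodes held no UMI of either gene. Their values come from the floor of 3 counts set for a group at 0 and show no rise. With held comparison cells in wild type they changed for Bank1 (0.045), Cr2 (1.70), Ebf1 (0.27), Ly6d (0.040) and Ptprcap (0.30). Shallow sets hold 29 and 24 barcodes, so single genes rest on few UMIs there. No paired analysis was possible because each condition is 1 library.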
